A study of Mus musculus with 54 samples.

Results

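The 31 genes described here encode enzymes and regulators of sterol and fatty acid synthesis, and were taken as a named list from the 20036 genes of the expression tables, in which all 31 were present. By role they are 7 genes of the mevalonate steps (Acat2, Hmgcs1, Mvk, Pmvk, Mvd, Idi1, Fdps), 3 genes from squalene to lanosterol (Fdft1, Sqle, Lss), 9 genes that act after lanosterol (Cyp51, Tm7sf2, Lbr, Msmo1, Nsdhl, Hsd17b7, Ebp, Sc5d, Dhcr7), 4 genes of regulation and sterol transport (Insig1, Srebf1, Srebf2, Stard4) and 8 fatty acid genes (Scd1, Scd2, Fasn, Acly, Acaca, Fads1, Fads2, Elovl6). Poly(A) RNA was sequenced from mouse cells of strain C57BL/6 X 129/SvJ at 3 stages of a culture that leads toward germ cells: embryonic stem cells (ESC), epiblast-like cells (EpiLC) and primordial germ cell-like cells (PGCLC) at day 2. Each stage was sampled in 9 lines with 2 libraries each, which gave 27 groups and 54 libraries. The lines were wild type (WT); lines labelled Ovol1KO, Ovol2KO and Ovol3KO, each named as a knockout of 1 gene of the Ovol family of zinc finger transcription factors; a line labelled TKO; lines that overexpress Ovol2a (Ovol2a-Tg), Ovol2b (Ovol2b-Tg) or both (Ovol2a/2b-Tg); and a line that overexpresses Cdh1, the gene of E-cadherin (Cdh1-Tg). The sources used here do not spell out TKO, do not say which promoter drives the transgenes or in which background they were placed, and do not say whether a line is 1 clone or whether the 2 libraries of a group are separate cultures. The p-values below therefore measure only the spread between these libraries, which may be technical.

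Sterols are built from acetyl-CoA through mevalonate and a chain of isoprenoids, which are joined to squalene, closed to lanosterol and trimmed step by step to cholesterol. Fatty acids are built from the same acetyl-CoA by Acly, Acaca and Fasn, then lengthened by elongases and given double bonds by desaturases. Many of these genes are targets of the SREBP transcription factors, which are encoded by Srebf1 and Srebf2. When sterols are scarce in the endoplasmic reticulum membrane, SREBP precursors travel to the Golgi, are cut there and enter the nucleus; Insig proteins hold them back when sterols are plentiful. Promoters that respond to SREBP often carry a sterol regulatory element together with sites for NF-Y (CCAAT) or Sp1 (GC boxes).

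Libraries held between 2158379 and 26728538 recovered reads, with a median of 8649672. Levels are TPM (transcript abundance scaled by gene length and by library total). All 31 genes passed the filter on low values, which asked for 1 TPM or more in 2 or more libraries, as did 14416 genes in all. In WT the summed TPM of 8 naive ESC markers was 7540 to 7750 in ESC, and that of 5 EpiLC markers was 1870 to 1940 in EpiLC. That of 6 germ cell markers was 158 to 164 in PGCLC against 28.6 to 33 in EpiLC. It was 277 to 307 in ESC, so the germ cell list does not set PGCLC apart from ESC. The WT PGCLC libraries also held 6 primitive streak and mesoderm markers at a summed 1830 to 1890 TPM, far above the germ cell markers. Ovol2 mRNA was 4.74 and 6.68 TPM in the PGCLC libraries labelled Ovol2KO against 11.3 and 6.98 in WT, and in EpiLC it was 33.7 and 34.6 against 9.51 and 12.7. The gene-level value goes against that label, although it cannot show a partial deletion, and these libraries are called "labelled Ovol2KO" here. Ovol3 mRNA was 9.84 and 7.25 TPM in the PGCLC libraries labelled Ovol3KO against 9.39 and 9.66 in WT, 5.8 and 5.66 against 13 and 10.4 in EpiLC, and 9.09 and 11.3 against 6.47 and 11.4 in ESC. Ovol1 did not exceed 2.93 TPM in any library and 1.02 TPM in WT, and stood at 0.95 and 1.35 TPM in the Ovol1KO PGCLC. The names Ovol1KO and Ovol3KO are therefore labels here too. In PGCLC of the 3 lines that overexpress Ovol2 forms, Ovol2 stood at 296 TPM or above. In Cdh1-Tg PGCLC Ovol2 was 1.46 TPM in both libraries, and in TKO PGCLC 1.52 and 0.835, each below WT. As EpiLC it was 11.2 and 10.5 in Cdh1-Tg and 9.21 and 11.2 in TKO, near WT. Cdh1 was 562 and 563 TPM in Cdh1-Tg PGCLC against 312 and 320 in WT. Cdh1 was 42.3 and 35.4 in PGCLC labelled Ovol2KO, 24 and 17.2 in TKO and 54.8 and 58 in Ovol2b-Tg. It was 98.4 and 90.3 in Ovol2a-Tg and 173 and 174 in Ovol2a/2b-Tg. The cell type field disagrees with the title in 8 libraries, all of the Ovol2a-Tg and Cdh1-Tg lines; stages here follow the titles.

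RefSeq promoter sequences of mouse build GRCm38.p6, from 250 bases before to 50 after a start, were matched for 24 of the 31 genes. None was available for Fdps, Fdft1, Sqle, Stard4, Scd1, Scd2 and Fads1, so the motif shares below leave these 7 genes out. The windows of 5 matched genes are shown because 4 of them (Hmgcs1, Mvd, Cyp51, Insig1) fell in WT PGCLC and were higher in several altered lines, whereas the other, Ebp, moved the opposite way. A Fads2 window was also chosen, but it touched an annotated exon and is not shown. Each run covers the bases from 200 to 51 before the RefSeq start, 5′ to 3′ on the gene's strand, and lies outside every exon of the GENCODE M21 annotation. Capitals mark matches on either strand to 4 motifs. The first is TCACNCCAC, a form of the sterol regulatory element. The others are the NF-Y box, CCAAT, then the GC box, written GGGCGG, and lastly an E-box, which reads CACGTG. A match on the other strand appears as its reverse complement. The windows are chr13:119690151-119690300 (+) for Hmgcs1, chr8:122443473-122443622 (-) for Mvd, chr5:4104748-4104897 (-) for Cyp51, chr5:28071212-28071361 (+) for Insig1 and chrX:8193563-8193712 (-) for Ebp.
Hmgcs1: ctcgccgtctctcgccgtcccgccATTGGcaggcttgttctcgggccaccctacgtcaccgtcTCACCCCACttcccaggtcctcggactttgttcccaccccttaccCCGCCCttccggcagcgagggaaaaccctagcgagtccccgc
Mvd: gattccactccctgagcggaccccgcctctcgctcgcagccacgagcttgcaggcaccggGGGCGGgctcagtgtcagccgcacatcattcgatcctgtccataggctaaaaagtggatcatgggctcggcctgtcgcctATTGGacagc
Cyp51: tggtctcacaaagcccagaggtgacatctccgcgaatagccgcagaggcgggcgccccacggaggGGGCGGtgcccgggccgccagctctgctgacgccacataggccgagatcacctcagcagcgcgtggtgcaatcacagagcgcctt
Insig1: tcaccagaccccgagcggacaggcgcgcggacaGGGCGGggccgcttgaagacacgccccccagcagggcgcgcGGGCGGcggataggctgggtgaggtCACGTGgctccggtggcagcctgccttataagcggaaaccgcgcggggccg
Ebp: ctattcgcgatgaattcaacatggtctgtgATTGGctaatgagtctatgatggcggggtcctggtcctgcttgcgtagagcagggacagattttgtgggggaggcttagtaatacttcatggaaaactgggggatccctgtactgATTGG
The Hmgcs1 window held 1 match each to TCACNCCAC, CCAAT and GGGCGG. Insig1 held 2 GC boxes and 1 E-box, Mvd 1 CCAAT and 1 GC box, Cyp51 1 GC box, and Ebp 2 CCAAT and no GC box. These counts hold for the bases shown only. Outside them Ebp had a GC box at -33 to -28, Cyp51 a CCAAT at -29 to -25 and Insig1 a CCAAT at -216 to -212. The printed runs therefore do not set Ebp apart by its motifs. Over the full windows, CCAAT occurred in 20 of the 24 matched members (83.3%) and in 42.11% of the 15248 genes with a promoter in the table. GGGCGG occurred in 20 of 24 members (83.3%) against 52.67% of all genes. CACGTG was found in 4 of 24 members (16.7%; Dhcr7, Hsd17b7, Insig1 and Sc5d) against 9.44% of all, and TCACNCCAC in 1 of 24 (4.2%) against 1.46%. These are letter matches within short windows and say nothing of what binds there.

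In WT cells the summed level of the synthesis genes was highest in EpiLC and lowest in PGCLC. The 31 genes summed to 4753 ± 148 TPM in ESC, 6678 ± 4 in EpiLC and 2781 ± 137 in PGCLC (SD, n = 2). The rise to EpiLC involved mainly the sterol branch. In total 12 of 31 genes were higher in EpiLC than in ESC, where 9.33% of all genes tested were, and 2 were lower, where 11.2% of all were. A gene is called higher or lower here when the Benjamini-Hochberg adjusted p from limma was under 0.05 and the log2 difference on the log2(TPM + 1) scale was at least 1, a scale that understates changes of low genes. The median log2 difference of the 31 genes was 0.88, beside -0.01 for all genes tested. Because TPM values are shares of the RNA in a bulk sample, fewer cells of a type and less RNA per cell cannot be told apart.

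Within the mevalonate steps, 5 of 7 genes were higher in WT EpiLC. Fdps makes farnesyl diphosphate, the branch point to sterols and to protein prenylation. It stood at 297 and 348 TPM in ESC and at 809 and 848 in EpiLC, a log2 difference of 1.36 ± 0.08 (SE; adjusted p = 1.97e-17). Hmgcs1, which makes HMG-CoA, went from 260 and 241 TPM to 585 and 583 (1.22). Mvd, the decarboxylase that yields isopentenyl diphosphate, went from 74.3 and 76.1 to 211 and 242 TPM (1.57 ± 0.09, adjusted p = 1.27e-17). In each of these genes both EpiLC libraries lay well above both ESC libraries. Among the genes from squalene to lanosterol 2 of 3 were higher: Lss, the cyclase that closes the ring, went from 33.9 and 29.5 to 103 and 114 TPM (1.74 ± 0.11, adjusted p = 1.33e-15), and Sqle just passed the fold threshold (1.01). After lanosterol, 3 of 9 were higher and 1 lower. Hsd17b7, which reduces a keto group left by demethylation, showed the largest rise of all members, from 8.56 and 6.38 to 30.2 and 25.5 TPM (1.78 ± 0.17, adjusted p = 3.84e-11), while Cyp51 and Sc5d rose by 1.05 and 1.19.

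Fatty acid genes moved in both directions in this first step, in which Acaca alone, the carboxylase that commits acetyl-CoA to fatty acids, was called higher among 8 (1.02 ± 0.14). Fads2 (0.90) and Fasn (0.80) rose and Scd2 fell (-0.51), each short of the fold threshold. Scd1, the stearoyl-CoA desaturase, stood at 315 and 268 TPM in ESC and 168 and 184 in EpiLC, a difference of -0.72 that stayed inside the fold threshold. Of the 4 regulators, Stard4, a sterol carrier, was higher (22.1 and 18.4 TPM to 51 and 48.9; 1.27 ± 0.13) and Srebf1 lower (104 and 97.9 to 45.6 and 52.1; -1.04 ± 0.09, adjusted p = 2.51e-12). Srebf2, which encodes the SREBP most tied to sterol synthesis, was 218 and 200 TPM in ESC and 192 and 199 in EpiLC (-0.10, adjusted p = 0.333). Insig1 likewise stood close in both stages, at 228 and 226 against 198 and 190 TPM (-0.22, adjusted p = 0.0516). The other gene called lower was Ebp, the sterol isomerase that moves the ring double bond, with 41.4 and 53.4 TPM in ESC and 17.4 and 14.3 in EpiLC (-1.52 ± 0.15, adjusted p = 9.25e-11). With limma-voom on recovered reads, with quantile scaling and with a pseudocount of 5, the count of lower genes dropped from 2 to 1.

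**Figure D1:**
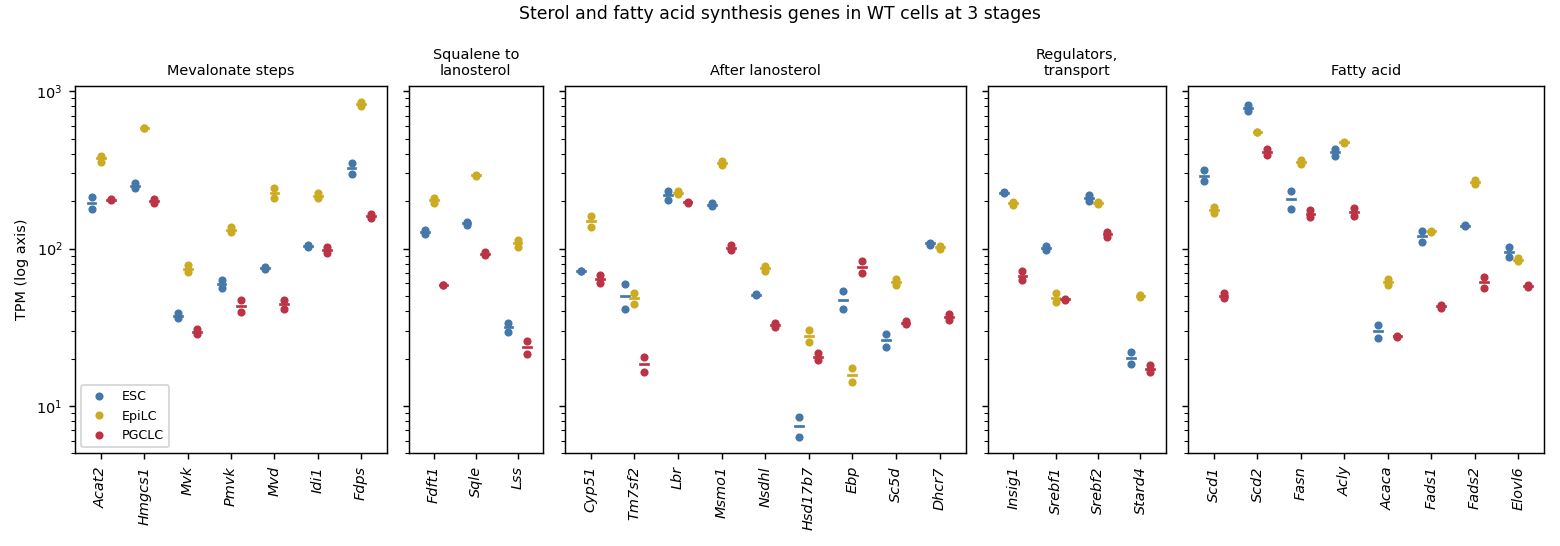
TPM of the 31 genes in WT ESC, EpiLC and PGCLC (log axis), each point 1 library, grouped by role. Most genes peak in EpiLC and lie lowest in PGCLC; Ebp runs the other way, at 17.4 and 14.3 TPM in EpiLC and 69.8 and 83.2 in PGCLC.

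WT PGCLC held much less mRNA of these genes than WT EpiLC, as a share of the total: 22 of 31 genes were lower, where 7.62% of all genes tested were lower. The lone gene called higher was Ebp, where 13.5% of all genes were. The median log2 difference over the 31 genes was -1.34 beside 0.15 for all genes, and 30 of the 31 differences were below 0. The count was 22 whichever single library was left out. By role, 6 of 7 mevalonate genes, 3 of 3 genes from squalene to lanosterol, 5 of 9 after lanosterol, 2 of 4 regulators and 6 of 8 fatty acid genes were lower.

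Fdps fell most, to 156 and 166 TPM (-2.35 ± 0.08, a 5.11-fold drop, adjusted p = 7.69e-24), and Mvd fell nearly as far, to 46.9 and 41.4 TPM (-2.33 ± 0.09). Lss led the squalene to lanosterol group at 21.4 and 25.8 TPM (-2.16 ± 0.11, adjusted p = 4.32e-18), and Fdft1 and Sqle, which make and oxidise squalene, fell by 1.76 and 1.65 on the log2 scale. After lanosterol the largest fall was that of Msmo1, the methyl sterol oxidase, from 360 and 341 to 97.5 and 106 TPM (-1.78 ± 0.10, adjusted p = 1.78e-17). The PGCLC values of all these genes lay below the EpiLC and also below the ESC values. Among fatty acid genes Fads2, the delta-6 desaturase of polyunsaturated fatty acids, fell from 256 and 271 to 56.4 and 66.3 TPM (-2.09 ± 0.09, adjusted p = 5.18e-21). Its neighbour on chromosome 19, Fads1, the delta-5 desaturase, fell from 128 and 130 to 44.1 and 42.2 TPM (-1.56). Scd1 fell to 48.2 and 52.4 TPM (-1.79 ± 0.10), whereas its close paralog Scd2, with which it may share reads, stood at 551 and 548 TPM in EpiLC and 394 and 428 in PGCLC (-0.42) and remained the most abundant of the 8.

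Of the regulators, Insig1 fell from 198 and 190 to 62.8 and 72 TPM (-1.52 ± 0.10, adjusted p = 2.39e-15) and Stard4 fell by 1.48. Srebf2 stood at 118 and 128 TPM in PGCLC (-0.66 ± 0.08, adjusted p = 2.05e-08), below the EpiLC values but short of the fold threshold. Srebf1 was 47.1 and 48.1 TPM, within the range of its EpiLC values (-0.03, adjusted p = 0.772). Mbtps2, a protease that releases SREBP, fell by 1.15, the only 1 called of 4 SREBP processing genes. Ebp rose from 17.4 and 14.3 to 69.8 and 83.2 TPM (2.20 ± 0.15, a 4.61-fold rise, adjusted p = 7.26e-15), so that it was at its lowest in the stage where most of the other sterol enzymes were at their highest.

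Against ESC, WT PGCLC had 9 of the 31 genes lower, where 10.8% of all genes were, and Hsd17b7 alone higher (1.36 ± 0.17), where 14.5% of all were. The lower genes included 4 fatty acid genes, Scd1, Acly, Fads1 and Fads2, and none of the 7 mevalonate genes was called. Scd1 showed the largest difference (-2.51 ± 0.10, adjusted p = 4.27e-22), from 315 and 268 TPM to 48.2 and 52.4, followed by Insig1 (-1.74 ± 0.10) and Dhcr7, the last reductase before cholesterol, at 106 and 109 TPM in ESC and 35 and 38.2 in PGCLC (-1.53 ± 0.09). Srebf1 was also lower (-1.07). Among the 3 genes from squalene to lanosterol, Fdft1 was lower (-1.10). Of the mevalonate genes Hmgcs1 differed by -0.32, Mvd by -0.76 and Fdps by -0.99.

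The next comparison asks whether the altered lines differ from WT at the same stage. As ESC and as EpiLC, none of the 31 genes was called in any of the 8 lines. Among all genes tested, the share called as ESC was 6.4% in Cdh1-Tg, 0.541% in Ovol1KO, 3.36% in labelled Ovol2KO, 1.85% in Ovol3KO, 4.08% in TKO, 4.31% in Ovol2a/2b-Tg, 4.95% in Ovol2a-Tg and 5.56% in Ovol2b-Tg. As EpiLC the shares were, in that order of lines, 6.38%, 0.486%, 1.42%, 2.85%, 2.3%, 4.5%, 2.06% and 1.67%. Counts of 0 do not mean equal levels, because between 5 and 19 members as ESC and between 6 and 23 as EpiLC had an unadjusted limma p under 0.05. The share of all genes under that p was not counted here or below, so such counts do not set the 31 genes apart. Limma-voom on recovered reads called 1 member in TKO ESC and none otherwise. Among ESC the widest differences were those of Ebp in TKO and Ovol2b-Tg (0.91 in each; 88.1 and 90.4 TPM in TKO against 41.4 and 53.4 in WT) and of Cyp51 in Ovol2a/2b-Tg (0.87). Among EpiLC they were Ebp in Cdh1-Tg (-0.83; 8.97 and 7.9 TPM), Idi1, the isomerase of the mevalonate branch, in Cdh1-Tg (0.80) and Cyp51 in Ovol3KO (-0.80). The mean log2(TPM + 1) of the 31 genes lay between 7.10 and 7.29 in the 9 EpiLC groups, close to the 7.22 of WT.

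As PGCLC the lines diverged. The mean log2(TPM + 1) of the 31 genes was 6.04 ± 0.07 in WT and 6.11 ± 0.06 in Ovol1KO, then 6.28 ± 0.06 in Ovol3KO, 6.32 ± 0.01 in Cdh1-Tg, 6.44 ± 0.01 in Ovol2a/2b-Tg, 6.60 ± 0.16 in Ovol2a-Tg, 6.90 ± 0.01 in Ovol2b-Tg, 6.94 ± 0.01 in TKO and 7.02 ± 0.02 in the line labelled Ovol2KO (SD, n = 2). Neighbours in this order whose means lie within their SDs of each other, such as WT and Ovol1KO, or Ovol3KO and Cdh1-Tg, did not differ beyond their spread. Summed TPM went from 2781 in WT to 5298 in TKO and 5615 in the labelled Ovol2KO line, above the 4753 of WT ESC. The 8 line comparisons share the 2 WT libraries, so their values are given side by side and not as independent evidence of each other.

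**Figure D2:**
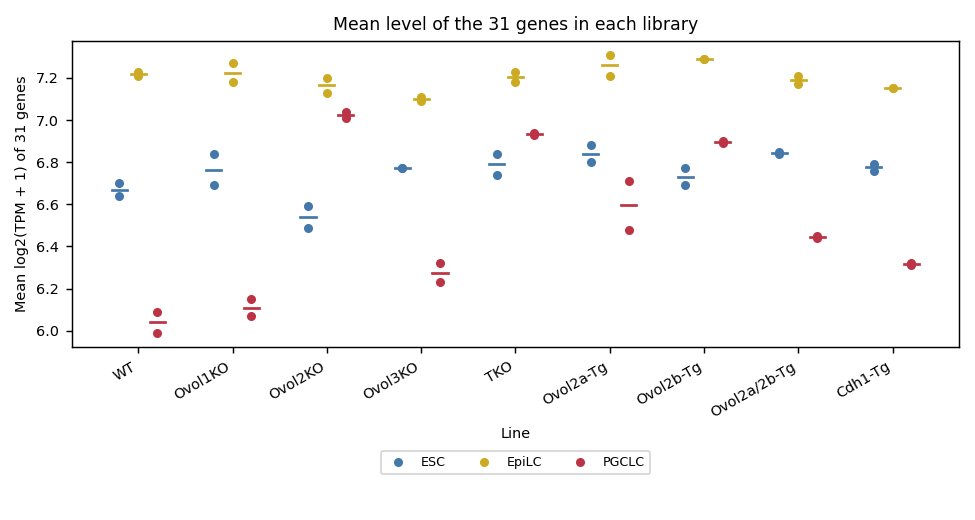
Mean log2(TPM + 1) of the 31 genes in each of the 54 libraries, by line and stage; each point is 1 library. EpiLC libraries of all lines lie together near the WT mean of 7.22, whereas PGCLC group means spread from 6.04 in WT to 7.02 in the line labelled Ovol2KO.

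In PGCLC labelled Ovol2KO, 15 of 31 genes were higher than in WT, where 4.11% of all genes were, and none was lower; the median log2 difference was 0.99, beside 0.04 for all genes tested. In TKO 11 were higher, where 5.58% of all were, with a median of 0.91 beside 0.03. Ovol2b-Tg had 11 higher, where 5.16% of all were, with a median of 0.88 beside 0.03. The higher genes came from every role in the labelled Ovol2KO line: 3 of 7 mevalonate genes, 2 of 3 from squalene to lanosterol, 5 of 9 after lanosterol, 1 of 4 regulators and 4 of 8 fatty acid genes. By the same roles the counts were 3, 0, 3, 1 and 4 in TKO and 3, 1, 2, 1 and 4 in Ovol2b-Tg. Several of these genes lie just past the fold threshold, among them Sqle (1.02), Dhcr7 (1.02) and Tm7sf2 (1.01) in the labelled Ovol2KO line, and with single libraries left out the counts ran from 11 to 17, from 9 to 14 and from 8 to 14. By adjusted p alone, 30 of 31 genes were higher in each of these 3 lines, beside 15.7%, 20% and 17.7% of all genes.

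Scd1, Fads1 and Fads2, all desaturases, differed most among the 31 genes in these 3 lines. Scd1 was 172 and 164 TPM in the labelled Ovol2KO line, 157 and 144 in TKO and 145 and 157 in Ovol2b-Tg, against 48.2 and 52.4 in WT. The log2 differences were 1.72 ± 0.10 (adjusted p = 2.06e-08), 1.56 ± 0.10 and 1.57 ± 0.10. Fads1 was 144 and 144, 145 and 147, and 117 and 116 TPM in the same 3 lines against 44.1 and 42.2 in WT, with differences of 1.72 ± 0.09 (adjusted p = 8.41e-09), 1.74 ± 0.09 (6.07e-09) and 1.41 ± 0.09 (6.2e-08). No library of these lines overlapped with WT for either gene. Fads2 stood at 180 and 201 TPM, 189 and 194, and 186 and 193, against 56.4 and 66.3 in WT (1.62, 1.63 and 1.62, each ± 0.09). Scd2 reached 851 and 831 TPM in the labelled Ovol2KO line against 394 and 428 in WT (1.03 ± 0.08). The enzymes that build the chain differed less: Fasn, the fatty acid synthase, was 270 and 275 TPM there against 158 and 175, and Acly, which supplies acetyl-CoA, 316 and 319 against 161 and 180, neither past the fold threshold.

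Among the mevalonate genes, Hmgcs1 was 517 and 503 TPM in the labelled Ovol2KO line, 452 and 434 in TKO and 451 and 456 in Ovol2b-Tg, against 194 and 207 in WT (1.34, 1.14 and 1.17, each ± 0.08). Mvd was 117 and 123 TPM, 107 and 106, and 99 and 93.7, against 46.9 and 41.4 (1.42, 1.25 and 1.11, each ± 0.11). Fdps was 382 and 366 TPM, 369 and 369, and 397 and 353, against 156 and 166 (1.21, 1.19 and 1.21, each ± 0.09). These levels exceed WT PGCLC in every library, yet Fdps and Mvd stayed below the 809 and 211 TPM of the lower WT EpiLC libraries. Acat2, which condenses acetyl-CoA at the entry of the pathway, was 320 and 341 TPM in the labelled Ovol2KO line against 202 and 206 (0.69, adjusted p = 2.05e-06), short of the fold threshold.

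Further along, Cyp51, the lanosterol demethylase, was 172 and 155 TPM in the labelled Ovol2KO line, 174 and 153 in TKO and 147 and 160 in Ovol2b-Tg, against 60.6 and 68.2 in WT (1.33, 1.33 and 1.24, each ± 0.11). It thereby reached its WT EpiLC range of 138 to 162 TPM. Cyp51 exons overlap those of Akap9 on the opposite strand. In all, 11 of the 31 genes overlap an exon of another annotated gene, among them Hmgcs1, Fdps, Fdft1, Lss, Tm7sf2, Lbr and Srebf1, and because no source used here states whether strand was used in counting, reads of such genes may be shared. Tm7sf2, a sterol reductase whose exons overlap those of Vps51 on the same strand, was 37.2 and 39.2 TPM in the labelled Ovol2KO line and 35.1 and 43.3 in TKO, against 16.5 and 20.6. Lbr, which has the same reductase activity and is also a lamin B receptor, differed by 0.69, 0.60 and 0.72 in the 3 lines without reaching the fold threshold.

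Of the 4 regulators, Insig1 was the 1 called in each of these lines. Insig1 was 190 and 158 TPM in the labelled Ovol2KO line, 158 and 160 in TKO and 162 and 161 in Ovol2b-Tg, against 62.8 and 72 in WT (1.35, 1.23 and 1.25, each ± 0.13). Srebf1 was 72.7 and 71.2 TPM in the first and 80.9 and 89.7 in TKO, against 47.1 and 48.1 (0.59 and 0.83, each ± 0.07). Srebf2 was 179 and 186, 187 and 176, and 178 and 179 TPM against 118 and 128 (0.56, 0.56 and 0.54). Stard4 was 37.2 and 33.7, 33.5 and 32.2, and 32.8 and 36.4 TPM against 16.4 and 18.2 (0.99, 0.89 and 0.96, each ± 0.13), just short of the fold threshold. Both Srebf genes and Stard4 thus lay above WT in the libraries given, at less than the fold threshold.

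**Figure D3:**
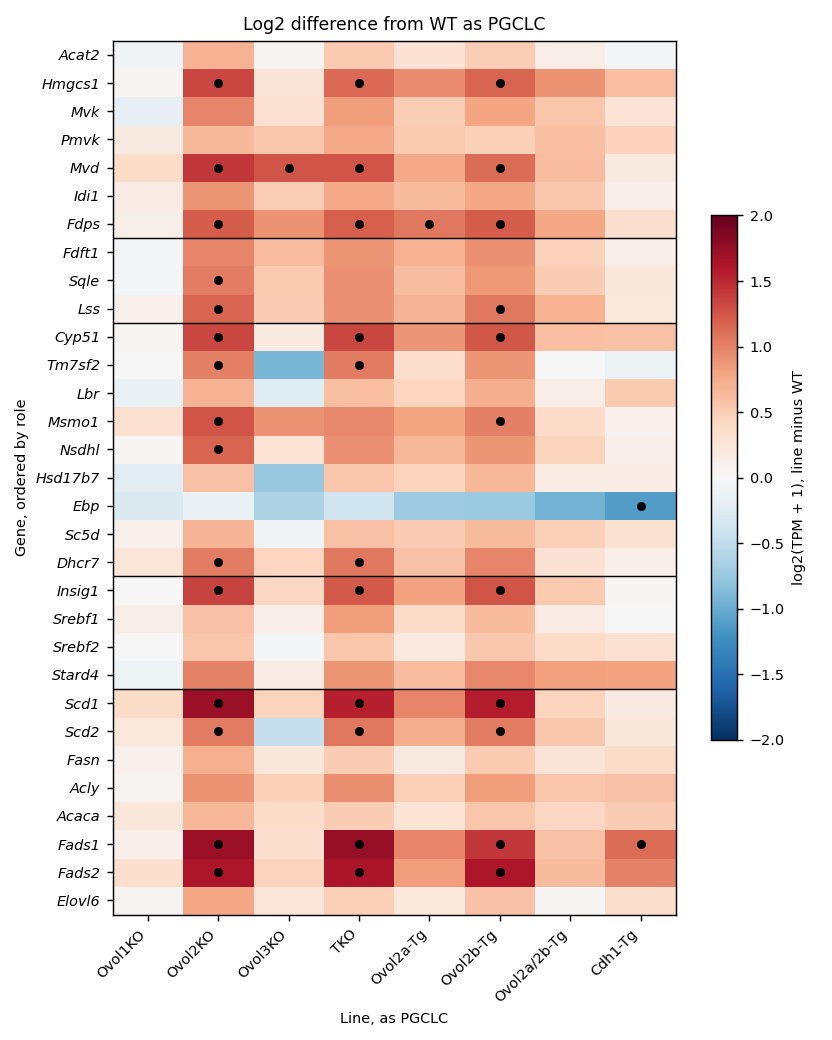
Log2 difference of each of the 31 genes against WT as PGCLC, on the log2(TPM + 1) scale, for the 8 altered lines; colour gives the difference and a black dot a call at adjusted p under 0.05 and an absolute difference of at least 1. Calls gather in 3 lines, with 15 in the labelled Ovol2KO line and 11 each in TKO and Ovol2b-Tg, and Ebp alone is called lower, in Cdh1-Tg (-1.11).

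The other 5 lines had few calls, with medians of 0.06 in Ovol1KO, 0.31 in Ovol3KO, 0.62 in Ovol2a-Tg, 0.47 in Ovol2a/2b-Tg and 0.23 in Cdh1-Tg, beside 0.00, -0.12, 0.02, 0.03 and 0.06 for all genes. Ovol1KO had none, where 0.493% of all genes were higher; 8 members had an unadjusted limma p under 0.05, the smallest adjusted p was 0.0566, and limma-voom called none either. Ovol3KO had Mvd alone (96.7 and 116 TPM; 1.25 ± 0.11, adjusted p = 3.66e-07), where 4.34% of all were higher. Ovol2a-Tg had Fdps alone (310 and 367 TPM; 1.06 ± 0.09, adjusted p = 2.1e-06), where 2.09% were; that count was 5 without its replicate 1 and 0 without its replicate 2, and Fdps was at 0.94 in the latter. Ovol2a/2b-Tg had no call, where 4.68% of all were higher, although 26 members had an unadjusted limma p under 0.05; limma-voom called 1 member lower. In Cdh1-Tg, Fads1 was higher (96.3 and 93.9 TPM; 1.12 ± 0.09, adjusted p = 2.41e-07), where 5.56% of all were, and Ebp lower (36.2 and 33.5 TPM; -1.11 ± 0.13, adjusted p = 7.2e-06), where 4.3% were; without WT replicate 2 the Ebp difference was -0.98. By adjusted p alone the genes higher numbered 15 in Cdh1-Tg (23.3% of all genes), 0 in Ovol1KO (1.91%), 18 in Ovol3KO (15.9%), 23 in Ovol2a/2b-Tg (20.2%) and 25 in Ovol2a-Tg (9.48%). Both libraries of a line lay above both WT libraries for 9 of the 31 genes in Ovol1KO (22.3% of all genes tested), 30 in the labelled Ovol2KO line (35.3%), 22 in Ovol3KO (25.7%), 25 in Cdh1-Tg (43.3%), 30 in TKO (35.3%), 28 in Ovol2a/2b-Tg (37.5%), 29 in Ovol2a-Tg (32.8%) and 30 in Ovol2b-Tg (34.1%).

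Single genes took different courses within some of these lines. In Cdh1-Tg both Fads genes stood high (Fads2 at 119 and 127 TPM, 0.99) while Scd1 at 58.6 and 55.5 TPM was near its WT values of 48.2 and 52.4. In Ovol3KO, Tm7sf2 was 10.7 and 8.25 TPM and Scd2 318 and 281 TPM, each below both WT libraries, while Msmo1 at 188 and 193 TPM and Mvd lay above. Ovol2a/2b-Tg had the most Ovol2 mRNA of any PGCLC, 3400 and 3190 TPM, and Scd1 at 66.9 and 70.9 TPM, whereas Ovol2b-Tg, with 345 and 296 TPM of Ovol2, had Scd1 at 145 and 157. Ovol2a-Tg held 900 and 867 TPM of Ovol2 and 87.1 and 113 TPM of Scd1. Over these 3 lines Scd1 was thus lowest where Ovol2 was highest, an order of 3 groups that was not tested. Other members did not all keep this order. Stard4 differed from WT by 0.62 in Ovol2a-Tg and 0.82 in Ovol2a/2b-Tg, and Srebf2 by 0.19 and 0.38. Outside these lines, Cdh1-Tg had 1.46 TPM of Ovol2 and yet less Scd1 than any of the 3.

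**Figure D4:**
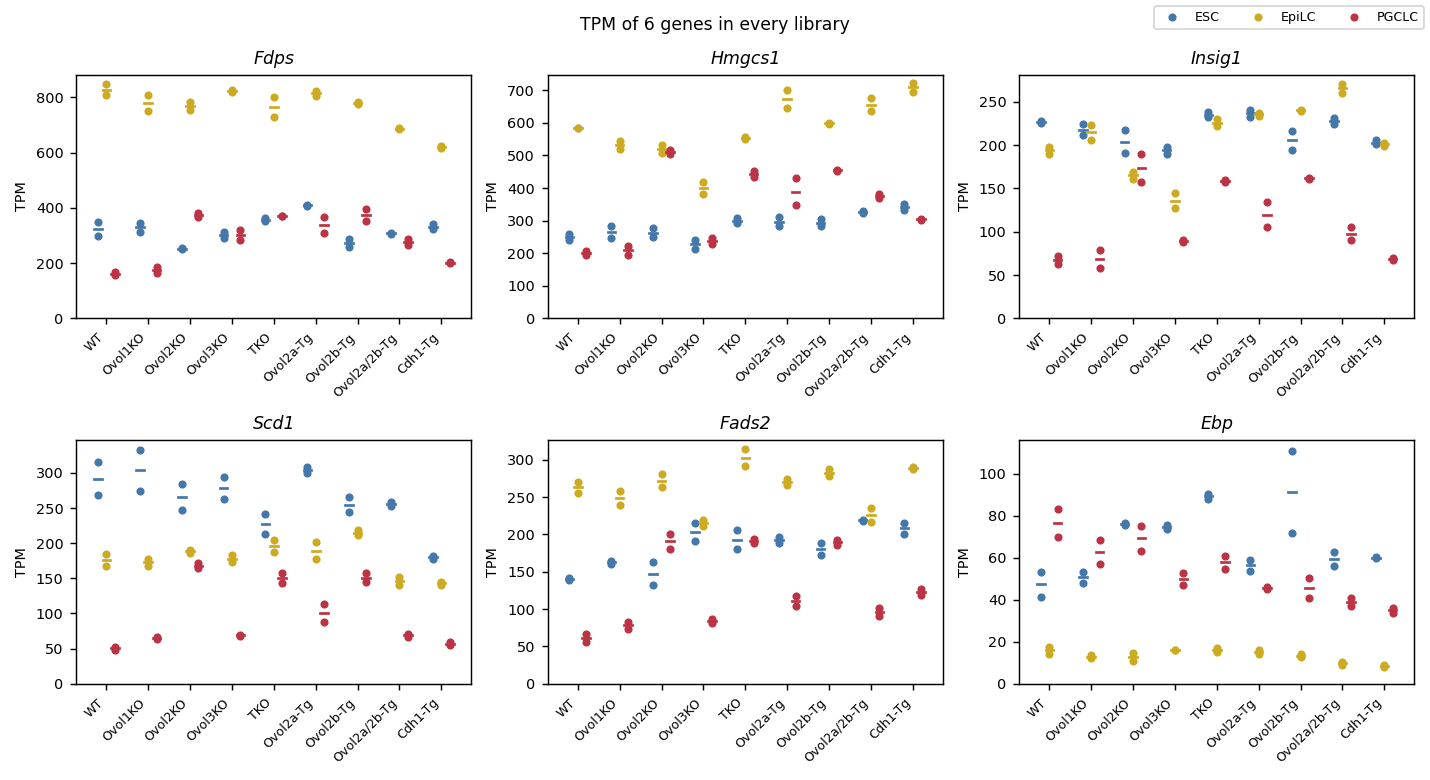
TPM of Fdps, Hmgcs1, Insig1, Scd1, Fads2 and Ebp in every library, by line and stage (each point 1 library, each short bar the group mean). In the first 5 genes the PGCLC libraries of the labelled Ovol2KO, TKO and Ovol2b-Tg lines lie above the WT PGCLC libraries; Ebp is lowest as EpiLC in every line.

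Differences between altered lines were tested in 6 pairs of PGCLC groups, a choice made after the values against WT were seen. In the pairs with Ovol2a-Tg or Ovol2a/2b-Tg, the lines also differ in how their libraries are named, and the part of such sets was not tested. Between the labelled Ovol2KO line and TKO no member was called (0.985% of all genes were), the median difference was 0.11, and Elovl6 alone passed by adjusted p (0.31 ± 0.07, adjusted p = 0.0187; 1.97% of all genes were higher by adjusted p alone). Limma gave 7 members an unadjusted p under 0.05 there, and limma-voom called none. None was called between Ovol2b-Tg and TKO either (0.354% of all; 3 members unadjusted, median -0.01, limma-voom none). Levels in Ovol2a-Tg lay below those in Ovol2b-Tg for 29 of 31 genes, with a median of -0.31 and Fads2 lowest at -0.77, but no member passed the fold threshold (0.93% of all genes did). By adjusted p alone 9 were lower (2.8% of all genes), and 23 had an unadjusted limma p under 0.05. Against TKO, Ovol2a-Tg again had no call (3.29% of all), with all 31 differences below 0, a median of -0.29 and Fads2 lowest at -0.79. There 16 were lower by adjusted p alone, where 8.12% of all genes were.

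Ovol2a/2b-Tg was set against the same 2 lines. Scd1 was the lone gene called between Ovol2a/2b-Tg and Ovol2b-Tg (-1.12 ± 0.10, adjusted p = 2.25e-06), where 5.17% of all genes differed. Of the 31 differences 30 were below 0, with a median of -0.44, and 23 genes were lower by adjusted p alone, where 14.3% of all genes were. Ovol2a/2b-Tg against TKO had 3 genes lower, Tm7sf2 (-1.04), Scd1 (-1.12) and Fads1 (-1.15), where 8.37% of all genes differed; limma-voom called 4. All 31 differences were below 0, with a median of -0.43, and 22 genes were lower by adjusted p alone, where 18.1% of all genes were. Whether the Ovol2a-Tg and Ovol2a/2b-Tg differences differ from each other was not tested.

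A separate test asked whether the step from EpiLC to PGCLC itself differed between each line and WT. In the labelled Ovol2KO line the step was higher than in WT, either less negative or above 0, for 17 of 31 genes. By the same rule 3.47% of all genes had a higher step, and the median difference was 1.03 beside -0.01 for all genes. TKO had 14 such genes (4.24% of all; median 0.89 beside -0.01) and Ovol2b-Tg had 10 (3.55% of all; median 0.86 beside -0.05). Mvd led in the first 2 lines (1.67 ± 0.12, adjusted p = 2.29e-12, and 1.63 ± 0.12, adjusted p = 2.25e-12), and Fads2 in Ovol2b-Tg (1.51). Nsdhl, a dehydrogenase that removes a sterol methyl group, had a difference of 1.63 ± 0.15 in the labelled Ovol2KO line. Stard4 passed in these 3 lines (1.29, 1.23 and 1.10) and in Ovol2a/2b-Tg (1.04), in which Fdps (1.04) was the other gene called and 4.16% of all genes were. Ovol2a-Tg had Fdps alone (1.08), where 1.18% of all were called. Ovol3KO had Idi1 higher (1.14 ± 0.12; 4.9% of all) and Tm7sf2 lower (-1.03 ± 0.22; 11.2% of all). Ovol1KO had none (0.25% of all; 3 members with an unadjusted limma p under 0.05; limma-voom none) and Cdh1-Tg none (4.83% of all; 19 unadjusted; limma-voom 1).

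Seen within each line, the fall from EpiLC to PGCLC called 20 members lower in Ovol1KO (6.62% of all genes), 13 in Ovol3KO (6.76%), 13 in Ovol2a/2b-Tg (8%), 13 in Cdh1-Tg (8.72%) and 6 in Ovol2a-Tg (8.13%). It called 3 in Ovol2b-Tg (9.7%), 2 in TKO (10.1%) and 2 in the labelled Ovol2KO line (9.68%). The median member difference was -1.33 in Ovol1KO, beside -1.34 in WT, and -0.49, -0.38 and -0.23 in Ovol2b-Tg, TKO and the labelled Ovol2KO line. Ebp rose in every line, by 1.54 in Ovol2a-Tg at the least and 2.38 in the labelled Ovol2KO line at the most.

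**Figure D5:**
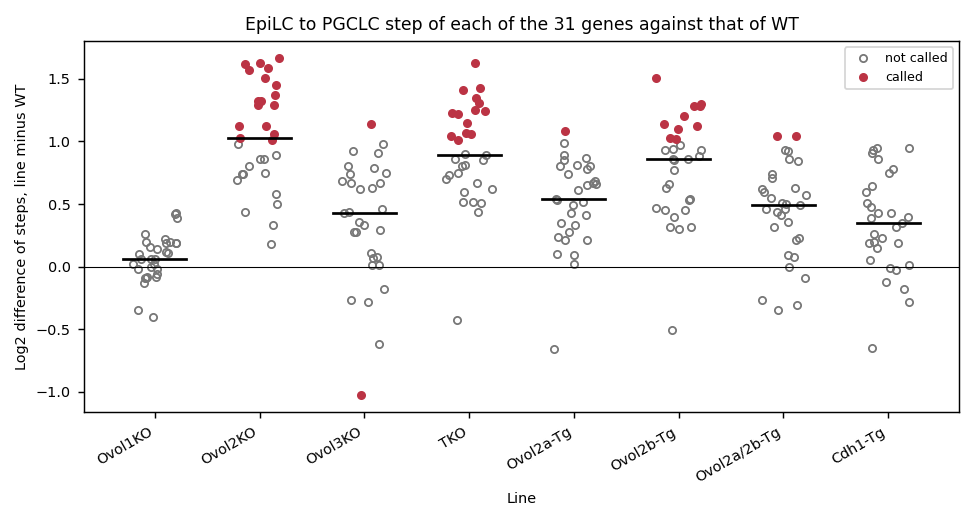
Difference of the EpiLC to PGCLC step between each line and WT (log2 scale) for the 31 genes, 1 dot per gene; red dots passed the test and the black bar is the median. Medians were 1.03 in the labelled Ovol2KO line, 0.89 in TKO and 0.86 in Ovol2b-Tg, with 17, 14 and 10 red dots.

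Ebp was the member whose course differed most from the others. Over the 27 group means, its log2(TPM + 1) had a correlation of -0.73 with the mean of the other 30 genes, and Srebf1 had -0.03, while Sqle and Fads2 had 0.95 each and Fdps 0.92; the median over members was 0.77, with 14 above 0.8. This is a description in which all points share the 3 stages. Group means of Ebp ran from 47.4 to 91.4 TPM in ESC, from 8.43 to 16.1 in EpiLC and from 34.9 to 76.5 in PGCLC, so the EpiLC groups lay below all others. Lbr (0.06) and Scd2 (0.32) also followed the rest weakly. No comparison with WT or between WT stages called Acat2, Lbr, Srebf2 or Elovl6, the elongase that takes palmitate to stearate. Elovl6 was nevertheless 102 and 98.9 TPM in the labelled Ovol2KO PGCLC against 56.8 and 58.8 in WT (0.78, adjusted p = 1.4e-06).

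Genes of the same pathways outside the 31 were counted by the same rule, by which 13.5% of all genes were higher and 7.62% lower in WT PGCLC than in EpiLC, and 9.33% higher and 11.2% lower in EpiLC than in ESC. None of the 4 SREBP processing genes was called in any line as PGCLC. Of 17 other genes of lipid supply, Elovl1 alone rose in WT PGCLC over EpiLC (1.33) and 4 fell, led by Mid1ip1 (-2.32), an activator of acetyl-CoA carboxylase, after 3 had risen and 2 fallen from ESC to EpiLC. Aacs, which makes acetoacetyl-CoA from ketone bodies, was higher as PGCLC in the labelled Ovol2KO line (1.32), TKO (1.09) and Ovol2b-Tg (1.15).

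Genes of storage, export and oxidation took other courses. Of 10 genes of sterol storage, export and LXR response, 3 rose from WT EpiLC to PGCLC, led by Soat1, and 1 fell, Abcg1 (-2.60), a sterol exporter, while from ESC to EpiLC 1 rose and 2 fell. Soat1, which stores cholesterol as esters, was 8.94 and 8.71 TPM in ESC, 42.5 and 43.9 in EpiLC and 193 and 182 in PGCLC, rising at each step. As PGCLC, Soat1 was lower in Ovol3KO (-1.48) and no gene of this list was called in the labelled Ovol2KO, TKO or Ovol2b-Tg lines. Of 13 tested genes of fatty acid oxidation, 3 rose from WT EpiLC to PGCLC, led by Acaa2 (1.64), a thiolase, and none fell. From WT ESC to EpiLC 5 of the 13 fell, Acaa2 (-1.31), Acadm (-1.09), Acads (-1.01), Slc25a20 (-2.07) and Cpt1a, and none rose. Cpt1a, the gatekeeper of mitochondrial fatty acid import, fell by 3.61. As PGCLC it was lower than in WT in the labelled Ovol2KO line (-1.90), TKO (-2.31), Ovol2b-Tg (-1.54) and Cdh1-Tg (-1.19), and higher in Ovol3KO (1.20).

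Marker genes of several cell types differed between the PGCLC groups along with these genes. Summed TPM of the 8 naive ESC markers was 943 to 1060 in WT, 296 to 298 in the labelled Ovol2KO line, 261 to 295 in TKO, 346 to 391 in Ovol2b-Tg and 140 to 141 in Cdh1-Tg, but 4020 to 4370 in Ovol3KO. Germ cell markers were 158 to 164 TPM in WT, 63.4 to 90.8 in the labelled Ovol2KO line, 64.8 to 73.9 in TKO and 105 to 108 in Ovol2b-Tg. Lines with few calls were also below WT, with 97.5 to 103 in Ovol2a-Tg, 91.9 to 110 in Ovol2a/2b-Tg and 112 to 114 in Cdh1-Tg. Ovol1KO had 205 to 243 and Ovol3KO 347 to 360, above WT. The 6 mesoderm markers were 2250 to 2510, 2400 to 2420 and 2230 to 2290 TPM in these 3 lines against 1830 to 1890 in WT, and 106 to 220 in Ovol3KO. For 5 trophoblast markers the sums were 531 to 575, 558 to 597 and 517 to 522 against 215 to 241, with Elf5 at 0 in all 4 groups, and 454 to 485 in Cdh1-Tg, in which 1 synthesis gene was higher. The 6 fibroblast markers summed to 97.4 to 107, 265 to 277 and 166 to 215 TPM against 16 to 23.4 in WT, and 248 to 269 in Cdh1-Tg; Dcn was at 0 in the labelled Ovol2KO line and TKO. Endoderm markers summed to 10.8 to 14.9 TPM in WT, with Afp, Ttr and Apoa1 at 0, 27.8 to 31.3 in the labelled Ovol2KO line, 41.3 to 44.6 in TKO, 40.8 to 48.4 in Ovol2b-Tg and 41.2 to 41.7 in Cdh1-Tg; neural markers were 15.9 to 19.4 in WT and 115 to 137 in Ovol3KO. Their part in the differences of the synthesis genes was not tested.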

How the data were processed

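TPM values per gene were deposited by the authors for 54 libraries, and each library sums to 1000000. HISAT2, featureCounts and the mm10 build are named per the submitters' processing notes. For versions, annotation and strand, nothing is given in the sources used here. From the deposited TPM, log2(TPM + 1) was fitted with limma 3.58.1 in R 4.3.3 (mean-variance trend, robust shrinkage) over the 14416 genes that had 1 TPM or more in 2 or more libraries. Lines were compared with WT on the 18 libraries of a stage (9 residual degrees of freedom); WT stages, steps within lines and step differences used all 54 (27 residual degrees of freedom). P-values were Benjamini-Hochberg adjusted over all genes tested, and genes were called at adjusted p under 0.05 and an absolute log2 difference of at least 1.

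Groups and replicate numbers come from the titles. TPM steps gave whole reads for 17973 of 17973 genes above 0 (tolerance 0.01), from 2158379 to 26728538 reads per library, which limits the precision of low genes; limma-voom on these reads was an added alternative. The 2 libraries of Ovol2b-Tg EpiLC differed by little more than sampling noise (chi-square per degree of freedom 1.05, against 1.31 to 10.4 in the other pairs) and were averaged in another. Same-numbered libraries deviated together weakly at most (correlations up to 0.20), so the numbers were not used to pair them. The fits were run on simulated data whose planted changes all lay beyond the fold threshold, so that run does not cover differences near the threshold.

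The 31 genes, the pathway and marker lists and the promoter motifs were chosen with earlier results of these data known. Per-library values are given for the called gene with the largest WT change from EpiLC to PGCLC in each role, for Srebf1, Srebf2 and Insig1, and for the 3 called genes with the largest rise and fall in other comparisons; further genes were named after their values were seen, and so were the 6 pairs of lines. Pathway lists were SREBP processing, lipid supply, sterol storage and export, and fatty acid oxidation. Results for a further list are not reported here. Alternatives were the pseudocount, no filter, quantile scaling, adjusted p alone, a replicate block and leaving out each library.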

Additional observations from a re-analysis of the deposited data

Results flagged for a closer look

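For 46 gene and line combinations the step from EpiLC to PGCLC differed from the step in WT by the interaction test in limma (adjusted p under 0.05 over all genes and an absolute log2 difference of at least 1), and each is given here as the line's step minus the WT step. In the line labelled Ovol2KO these were, among the mevalonate genes, Hmgcs1 (1.51), Mvk (1.01), Mvd (1.67) and Fdps (1.32). The squalene to lanosterol genes were Fdft1 (1.32), Sqle (1.12) and Lss (1.12). After lanosterol they were Cyp51 (1.45), Msmo1 (1.37), Nsdhl (1.63) and Dhcr7 (1.06). The rest were the regulators Insig1 (1.59) and Stard4 (1.29) and the fatty acid genes Scd1 (1.62), Scd2 (1.03), Fads1 (1.29) and Fads2 (1.57).

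In TKO the mevalonate genes were Hmgcs1 (1.22), Pmvk (1.04), Mvd (1.63) and Fdps (1.31), followed by Fdft1 (1.35), Sqle (1.07), Cyp51 (1.25) and Msmo1 (1.06). TKO also had Insig1 (1.01), Stard4 (1.23), Scd1 (1.41), Acly (1.15), Fads1 (1.24) and Fads2 (1.43). In Ovol2b-Tg the genes were Hmgcs1 (1.14), Mvd (1.28), Fdps (1.3), Fdft1 (1.2), Cyp51 (1.03), Stard4 (1.1), Scd1 (1.28), Acly (1.02), Fads1 (1.12) and Fads2 (1.51). Ovol2a-Tg had Fdps (1.08), and Ovol2a/2b-Tg had Fdps (1.04) and Stard4 (1.04). In Ovol3KO, Idi1 was higher (1.14) and Tm7sf2 was lower (-1.03). All of these comparisons share the 4 WT libraries of the 2 stages, and differences just above 1 may fall under the threshold with 1 library left out.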

How the results depend on the processing

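No called result changed sign under an alternative run, although calls came or went. For example, PGCLC labelled Ovol2KO had 13 genes higher with limma-voom and 12 with quantile scaling or a pseudocount of 5, against 15. Ovol2b-Tg as PGCLC had 8 higher with limma-voom against 11, and the TKO step difference had 11 against 14. No single alternative of pseudocount, filter, quantile scaling or limma-voom moved the main counts of the WT step to PGCLC or of the labelled Ovol2KO, TKO and Ovol2b-Tg lines by over 1.5 times. By adjusted p alone, members numbered 20 higher and 4 lower in WT EpiLC against ESC (28.1% and 30.3% of all genes), and 3 higher and 21 lower in WT PGCLC against ESC (37.5% and 26.1%). For the lines as PGCLC the counts higher and lower were 30 and 0 in labelled Ovol2KO, 15 and 1 in Cdh1-Tg and 18 and 5 in Ovol3KO. They were 23 and 1 in Ovol2a/2b-Tg, 25 and 1 in Ovol2a-Tg, 30 and 1 in TKO, and 30 and 1 in Ovol2b-Tg. Of all genes, in that order of lines, 11.8%, 14.3%, 30.2%, 14.4%, 5.94%, 15.3% and 12.2% were lower. For the step differences, 28 were higher in labelled Ovol2KO, 16 in Ovol3KO, 28 in TKO, 19 in Ovol2a-Tg, 26 in Ovol2b-Tg, 18 in Ovol2a/2b-Tg and 14 in Cdh1-Tg. In addition 3 were lower in Ovol3KO and 1 in Cdh1-Tg. Of all genes, in that order of the 7 lines, 7.26%, 14.4%, 9.82%, 2.8%, 7.33%, 10.9% and 10.9% were higher. The shares lower were 9.14%, 24.6%, 11.4%, 3.88%, 9.38%, 8.34% and 11.2%. For EpiLC they were 5 in labelled Ovol2KO, 19 in Ovol3KO, 12 in TKO, 9 in Ovol2a-Tg, 8 in Ovol2b-Tg, 20 in Ovol2a/2b-Tg and 17 in Cdh1-Tg in either direction. Of all genes, in that order of lines, 5.46%, 15.8%, 10.4%, 11.6%, 10.3%, 20.6% and 26% were higher. The shares lower were 3.05%, 15.5%, 5.63%, 5.65%, 3.13%, 17.5% and 15.7%. For ESC they were 7 in labelled Ovol2KO, 4 in Ovol3KO, 8 in TKO, 14 in Ovol2a-Tg, 9 in Ovol2b-Tg, 10 in Ovol2a/2b-Tg and 11 in Cdh1-Tg. In the same order 6.53%, 7.54%, 8.41%, 12.6%, 10.3%, 8.99% and 11.1% of all genes were higher. The shares lower were 9.22%, 5.13%, 10.1%, 15.4%, 13.7%, 11.5% and 14.2%. These rises come from dropping the fold threshold.

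Other changes concern counts of 0 to 2. In WT EpiLC against ESC, 1 gene was lower with limma-voom, quantile scaling or a pseudocount of 5. The step difference in Ovol3KO had 0 lower with limma-voom, quantile scaling or a pseudocount of 5, and 2 higher with quantile scaling. It had 2 higher in Ovol2a-Tg with limma-voom or a pseudocount of 0.5, 1 in Ovol2a/2b-Tg with quantile scaling or a pseudocount of 5, and 1 in Cdh1-Tg with limma-voom. Limma-voom also gave 1 lower in Ovol2a/2b-Tg as PGCLC and 1 changed in TKO ESC. The cause was not tested. With 1 library left out, where an arm then holds a lone sample assumed to vary like the other groups, counts ran from 11 to 17 (labelled Ovol2KO), 9 to 14 (TKO) and 8 to 14 (Ovol2b-Tg) as PGCLC, 9 to 13 higher and 1 to 2 lower in WT EpiLC against ESC, and 14 to 19, 12 to 15 and 8 to 13 for the step differences. Left-out ranges were 0 to 5 for Ovol2a-Tg as PGCLC and 0 to 4 for its step, 1 to 3 higher and 0 to 1 lower for the Ovol3KO step, 1 to 3 for the Ovol2a/2b-Tg step and 0 to 1 for the Cdh1-Tg step. They were 0 to 1 lower for Ovol3KO, Ovol2a/2b-Tg and Cdh1-Tg as PGCLC, 1 to 2 higher for Cdh1-Tg, and 0 to 1 for TKO and Ovol2b-Tg as ESC. A fit with the replicate number as a block changed no count (for example 15, 11 and 11 as PGCLC and 22 in WT). Same-numbered libraries had correlations of -0.21 to 0.20 in ESC, -0.06 to 0.06 in EpiLC and -0.08 to 0.18 in PGCLC. In ESC the deviations of WT went weakly with those of Ovol1KO (0.179) and TKO (0.197). Counts from 1 fit of all 54 libraries, and motif counts without the 50 bases after the start, were within 1.5 times the main ones. The block was not run for Ovol2b-Tg EpiLC, whose column numbers match no other group's. With 2 libraries a group and as few as 2158379 reads, small differences of low genes such as Hsd17b7 and Tm7sf2 are the least certain.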
